A study of Mus musculus with 12 samples.

Results

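The genes described here are 10 genes of inflammatory and regulated lytic cell death: Nlrp3, Pycard, Casp1, Casp4, Gsdmd and Il18 of the inflammasome and pyroptosis, and Ripk1, Ripk3, Mlkl and Casp8 of necroptosis and its control. They were taken by symbol from a table of 22053 gene rows, and all 10 were found. RNA of whole kidney was sequenced from 12 C57BL/6 wild-type mice. The 4 control mice ate the matching diet with no adenine and received weekly i.p. PBS. The 4 mice with CKD ate 0.2% adenine for 8 weeks, from 8 to 16 weeks of age, with the same PBS injections. The 4 CKD+Fe mice ate the adenine diet and were injected i.p. every week with 0.5 g/kg iron dextran. Adenine feeding was therefore shared by both CKD groups, no group received iron without adenine, and whole kidney holds every renal and infiltrating cell type.

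In the canonical inflammasome, the sensor NLRP3 binds the adaptor ASC, the product of Pycard, which recruits caspase-1. Caspase-1 cleaves the precursors of IL-1β and IL-18 and the pore-forming protein gasdermin D. Mouse Casp4 encodes caspase-11, which binds cytosolic lipopolysaccharide and cleaves gasdermin D directly. Necroptosis runs from the kinase RIPK1 to the kinase RIPK3 and on to MLKL, which permeabilises the plasma membrane, and caspase-8 cleaves RIPK1 and RIPK3 and thereby restrains it. All of these proteins are controlled by cleavage, assembly or phosphorylation, which transcript levels do not measure.

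In mice with CKD, 9 of the 10 transcripts were called higher than in control mice, as were 54.6% of all tested genes. Casp8 was level in the deposited values. Once the mice were rescaled, as given below, Casp8 was called lower, and Il18 and Ripk1 were not called. Casp4 differed most, with a mean 18.7 times that of controls, and Ripk3 was 6.97 times and Gsdmd 5.41 times the control mean. In CKD+Fe mice 9 were likewise called higher than in controls (54.4% of all tested genes), Casp4 again by most. None of the 10 was called against CKD, where 1 of all 13148 tested genes (0.00761%) was.

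Positions are those of GENCODE M21 on GRCm38, and each gene body spans coding exons, introns and UTRs. Casp1 (ENSMUSG00000025888) lies on chr9:5298517-5307265 and Casp4 (ENSMUSG00000033538) on chr9:5308828-5336783, both on the plus strand, with 1562 bases between them. Nlrp3 (ENSMUSG00000032691) is at chr11:59541568-59566956 on the plus strand, Pycard (ENSMUSG00000030793) at chr7:127989708-127993867 on the minus strand and Gsdmd (ENSMUSG00000022575) at chr15:75862327-75867408 on the plus strand. Ripk3 (ENSMUSG00000022221) is at chr14:55784995-55788865 and Mlkl (ENSMUSG00000012519) at chr8:111311797-111338177, both on the minus strand. Casp8 (ENSMUSG00000026029) is at chr1:58795374-58847503, Ripk1 (ENSMUSG00000021408) at chr13:34002363-34037147 and Il18 (ENSMUSG00000039217) at chr9:50554827-50581840, all on the plus strand. Il18 overlaps Bco2 and Tex12, and Ripk1 overlaps Serpinb6a, each on the opposite strand. The library kit kept strand, but whether strand was used in quantification is not given in the sources used here. The deposited position of Il18 starts at 50575273, inside the annotated gene.

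RefSeq promoters (GRCm38.p6, 250 bases before to 50 after a transcript start) were found for 9 of the 10 genes, in 12 windows. The 250 upstream bases are shown for Casp1 and Casp4, neighbours that both rose, and for Nlrp3, the sensor. They are also shown for Casp8, the transcript that was level in the deposited values. Sequences are on the plus strand, and capitals mark NF-κB-type letters.

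Casp4, chr9:5308599-5308848: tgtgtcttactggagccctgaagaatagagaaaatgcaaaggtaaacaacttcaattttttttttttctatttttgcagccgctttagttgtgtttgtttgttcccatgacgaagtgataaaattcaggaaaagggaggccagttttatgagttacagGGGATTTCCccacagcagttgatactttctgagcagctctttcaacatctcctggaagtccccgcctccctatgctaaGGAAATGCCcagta
Casp1, chr9:5298267-5298516: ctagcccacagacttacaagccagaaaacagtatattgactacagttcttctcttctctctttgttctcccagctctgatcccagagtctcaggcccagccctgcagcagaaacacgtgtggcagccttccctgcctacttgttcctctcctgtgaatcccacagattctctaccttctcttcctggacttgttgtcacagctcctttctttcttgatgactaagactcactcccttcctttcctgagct
Nlrp3, chr11:59541319-59541568: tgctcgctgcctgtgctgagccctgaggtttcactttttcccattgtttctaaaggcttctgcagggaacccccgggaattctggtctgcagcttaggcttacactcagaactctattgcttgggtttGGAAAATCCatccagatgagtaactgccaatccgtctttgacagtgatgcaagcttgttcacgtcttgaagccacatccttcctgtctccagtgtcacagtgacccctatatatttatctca
Casp8, chr1:58802252-58802501: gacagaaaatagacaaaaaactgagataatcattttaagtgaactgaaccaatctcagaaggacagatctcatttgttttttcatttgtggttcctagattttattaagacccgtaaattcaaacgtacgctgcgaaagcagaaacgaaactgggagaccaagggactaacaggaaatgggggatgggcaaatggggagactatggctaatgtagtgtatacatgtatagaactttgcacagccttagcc

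The last 21 bases of the Casp4 stretch and the last base of the Nlrp3 stretch fall in annotated exons, and the Casp8 stretch lies before an internal start, within the annotated gene. Both strands of all 12 windows were searched for 5 motifs: GGANTTTCC (NF-κB), GAAANNGAA (IRF), TTCNNNGAA (GAS, bound by STAT factors), GAGGAAG (PU.1) and TGANTCA (AP-1). The NF-κB letters were found in 1 window, that of Nlrp3 above, 122 bases before the start on the minus strand, against 1.25% of all 32851 RefSeq windows. A looser spelling that includes the first, GGNNTTTCC, was added after the Casp4 sequence had been seen. It was found in 4 windows, both overlapping windows of Casp4 and both of Nlrp3, against 5.82% of all windows. In the Casp4 stretch above it begins 92 and 14 bases before the start. IRF letters were found in 2 windows (8.56% of all), 15 bases after the Ripk3 start and 5 bases before the second Ripk1 start. GAS letters were found in 1 (8.3% of all), the same Ripk1 window. PU.1 letters were in 3 windows (13.6% of all), those of Pycard, Ripk1 and the second Nlrp3 start, and AP-1 letters in 0 (7.81% of all). No window of Casp1, Casp8, Il18 or Mlkl held any of these letters. These matches are descriptions of sequence, and binding was not measured.

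Expression was deposited as FPKM, in which fragments are counted relative to transcript length and to the mapped reads of the mouse, so levels of different genes can be compared per length. Read counts were not used here and the depth is unknown. A relative depth was read from the steps between low values. It was 0.818 to 0.993 in control, 0.763 to 0.796 in CKD and 0.683 to 0.901 in CKD+Fe mice. FPKM summed per mouse to 607951 to 707843 in control, 503438 to 603556 in CKD and 536139 to 572074 in CKD+Fe. Every control sum was thus above every adenine-fed sum, and every control depth above every CKD depth. Differences were tested with limma on log2(FPKM + 1) over 13148 genes that reached 1 FPKM in 4 or more mice. A gene counted as called when its p was under 0.05 after Benjamini-Hochberg adjustment across that set. All 10 genes passed this filter, but Nlrp3 and Ripk3 were below 1 FPKM in every control mouse and passed through the adenine-fed groups. Mlkl, Casp1 and Casp4 reached 1 FPKM in only some control mice, so they also needed the adenine-fed groups to pass. Over all tested genes, CKD exceeded control by a median of 0.50 on the log2 scale, 54.6% of genes were called higher and 13.3% lower, so the counts for the 10 genes are read against these shares. Median-of-ratios rescaling brought that median to -0.026 and quantile normalization to -0.029. The share of calls that were higher was 80.4% as deposited, 46.7% after median-of-ratios rescaling and 47.6% after quantile normalization. Mice 042301 (control), 110310 (CKD) and 042702 (CKD+Fe) stand apart from their groups across the transcriptome, and values without them are given for the 10 genes where they end a call.

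Markers of some cell types moved with the diet, and those of others were not called. In CKD no marker was called of the thick ascending limb (2 tested), distal convoluted tubule (1), podocyte (2) or urothelium (4). Of endothelial markers 1 of 3 was called lower, and of principal cell markers 2 of 5. Of intercalated cell markers 1 of 5 was called higher and 2 lower. Over all tested genes 54.6% were called higher and 13.3% lower. The sum of 12 macrophage markers was 130 to 260 FPKM in control mice, 1821 to 3754 FPKM in mice with CKD and 1682 to 3827 FPKM in CKD+Fe mice. All 12, Adgre1, Csf1r and Lyz2 among them, were called higher in CKD, where 54.6% of all tested genes were, with a median log2 fold change of 3.34. Itgam was below 1 FPKM in every control mouse, and Mrc1 and Fcgr1 in some, so they passed the filter through the adenine-fed groups. The sum of 7 neutrophil markers was 1.82 to 6.68 FPKM in controls, 61.1 to 232 FPKM in CKD and 52.1 to 146 FPKM in CKD+Fe. Of the 7, 5 were called higher in CKD, where 54.6% of all tested genes were. Each of the 5 was below 1 FPKM in some or all control mice and passed the filter through the adenine-fed groups. Mpo and Ly6g did not pass the filter on low values. Ly6g was 0.0552 to 0.508 FPKM in controls and 0.641 to 1.21 FPKM in CKD. The 6 T cell markers summed to 2.98 to 8.14 FPKM in controls, 5.07 to 25.5 FPKM in CKD and 15.4 to 28.8 FPKM in CKD+Fe. The 7 proximal tubule markers summed to 1877 to 3120 FPKM in controls, 340 to 641 FPKM in CKD and 448 to 1010 FPKM in CKD+Fe. Slc34a1 was the largest part of the control sum, with a mean of 1542 FPKM in a mean sum of 2568 FPKM. In CKD 6 of the 7 were called lower, where 13.3% of all tested genes were. Slc5a12 was not called, with means of 36.7 FPKM in control and 36.6 FPKM in CKD mice. The part of these cell populations in the changes below was not tested, and in whole tissue a change in the number of cells of a type and a change in RNA per cell cannot be told apart.

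**Figure D1:**
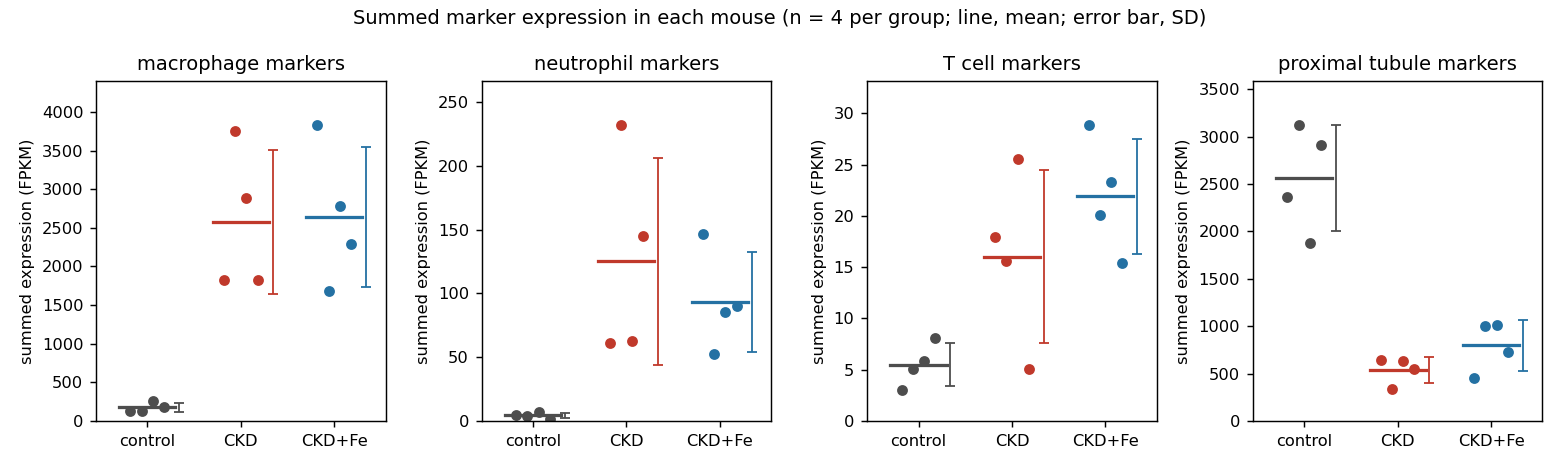
Summed expression in FPKM of macrophage, neutrophil, T cell and proximal tubule marker lists in each mouse, by group; points are mice, lines are means and error bars are SD. Macrophage sums of the adenine-fed mice (1682 to 3827 FPKM) sit above all control mice (130 to 260 FPKM), and proximal tubule sums sit below them.

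Nlrp3 was the least abundant of the 10 transcripts in every group. It was 0.152, 0.171, 0.265 and 0.29 FPKM in the control mice, 1.39, 2.45, 1.05 and 1.97 FPKM in mice with CKD, and 1.55, 1.01, 0.883 and 0.923 FPKM in CKD+Fe mice. Every adenine-fed mouse was above every control mouse, and the CKD and CKD+Fe ranges overlapped. Its log2 fold change in CKD was 1.13 (standard error 0.17, adjusted p = 6.61e-05). This scale understates the change of so low a gene, since the means stood in a ratio of 7.83, and with a pseudocount of 0.1 the log2 fold change was 2.47. With quantile normalization it was 0.39 (adjusted p = 0.0357).

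Pycard, the adaptor, had the highest mean of the pyroptosis transcripts in all 3 groups. It was 8.48, 9.86, 21.4 and 6.67 FPKM in control mice, 42.9, 55.9, 52.8 and 36.7 FPKM in CKD, and 55.3, 34.1, 37.2 and 31.7 FPKM in CKD+Fe. The control mouse at 21.4 FPKM was mouse 042301, and even so no control mouse reached an adenine-fed mouse. In CKD the log2 fold change of Pycard was 2.04 (standard error 0.28, adjusted p = 3.53e-05).

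Casp1 rose from 0.478, 1.09, 1.11 and 1.25 FPKM in control mice to 6.28, 8.93, 5.48 and 2.75 FPKM in CKD. In CKD+Fe mice it was 7.5, 5.14, 6.73 and 5.57 FPKM, within the range of CKD. The groups did not overlap with controls, and the log2 fold change in CKD was 1.73 (standard error 0.25, adjusted p = 5.01e-05).

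Casp4, the caspase of the non-canonical pathway, showed the largest change of the 10. Its level was 1.03, 0.949, 1.64 and 1.4 FPKM in control mice, 19.7, 39.4, 17.5 and 17.4 FPKM in CKD, and 19.8, 15.6, 17.7 and 17.9 FPKM in CKD+Fe. The lowest CKD mouse was thus far above the highest control mouse, and CKD mouse 022301 stood well above its group. Casp4 thus had a log2 fold change in CKD of 3.37 (standard error 0.22, adjusted p = 9.28e-08), and 99.4% of tested genes had a lower one. It ran from 2.71 to 4.06 over the alternatives run.

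Gsdmd, whose product forms the pyroptotic pore, was 1.58, 3, 3.9 and 1.78 FPKM in control mice and 11.2, 19.5, 14.8 and 9.98 FPKM in CKD. It was 21, 10.6, 13.9 and 10.5 FPKM in CKD+Fe. All adenine-fed mice were above all control mice, and the log2 fold change in CKD was 2.07 (standard error 0.27, adjusted p = 1.92e-05).

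Il18, a cytokine that caspase-1 activates, behaved differently from the other pyroptosis transcripts. It was 1.73, 3.64, 2.33 and 2.65 FPKM in control mice, 4.19, 3.67, 4.27 and 2.92 FPKM in CKD, and 4.98, 4.16, 4.1 and 3.34 FPKM in CKD+Fe. Control and CKD mice overlapped, because control mouse 012822 was above CKD mouse 120102. The log2 fold change of 0.43 (standard error 0.17) was just past the threshold (limma adjusted p = 0.0439), below the median of all genes, and the exact two-sided permutation p was 0.0571. It became -0.04 after median-of-ratios rescaling and -0.40 after quantile normalization. The call was also lost without any 1 of 6 of the 8 mice, with adjusted p up to 0.15, and it was lost without mice 042301, 110310 and 042702 together (adjusted p = 0.124).

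Among the necroptosis genes, Ripk1 was the kinase with the higher level and the smaller change. It was 7.81, 7.4, 4.95 and 8.21 FPKM in control mice, 11.6, 13.2, 10.7 and 12.4 FPKM in CKD, and 11.3, 10.3, 11.4 and 12.5 FPKM in CKD+Fe. No control mouse reached an adenine-fed mouse. The log2 fold change in CKD was 0.70 (standard error 0.15, adjusted p = 0.000999), close to the median of all genes, and after median-of-ratios rescaling it was 0.14 (adjusted p = 0.441).

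Ripk3, the kinase that phosphorylates MLKL, was 0.523, 0.655, 0.701 and 0.534 FPKM in control mice and 3.45, 4.57, 5.13 and 3.67 FPKM in CKD. In CKD+Fe mice it was 4.08, 3.53, 3.28 and 3.19 FPKM. Its groups were tight, with an SD of 0.0883 FPKM in controls, and did not overlap with controls. Its log2 fold change in CKD was 1.69 (standard error 0.14, adjusted p = 5.1e-07), or 2.60 with a pseudocount of 0.1.

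Mlkl, the executioner of necroptosis, was 1.1, 0.661, 0.984 and 0.739 FPKM in control mice, 2.9, 5.94, 5.02 and 2.83 FPKM in CKD, and 4.82, 3.85, 2.22 and 2.95 FPKM in CKD+Fe. Every adenine-fed mouse was above every control mouse, and the 4 CKD mice spread more widely than for Ripk3. For Mlkl the log2 fold change in CKD was 1.42 (standard error 0.22, adjusted p = 9.93e-05).

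Casp8, the protease that restrains necroptosis, was level across the 3 groups in the deposited values. It was 20.3, 21.5, 25.7 and 18.6 FPKM in control mice, 22.3, 23.3, 21.2 and 20.7 FPKM in CKD, and 21.4, 23.3, 19.6 and 22.1 FPKM in CKD+Fe. All 3 groups overlapped. The log2 fold change in CKD was 0.03, with a 95% confidence interval from -0.23 to 0.29 (adjusted p = 0.834). Because most genes had positive values, only 26.6% of tested genes lay below it, and once the mice were rescaled Casp8 was called lower, at -0.57 with median-of-ratios rescaling (adjusted p = 0.00118) and -0.31 with quantile normalization (adjusted p = 0.0313).

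**Figure D2:**
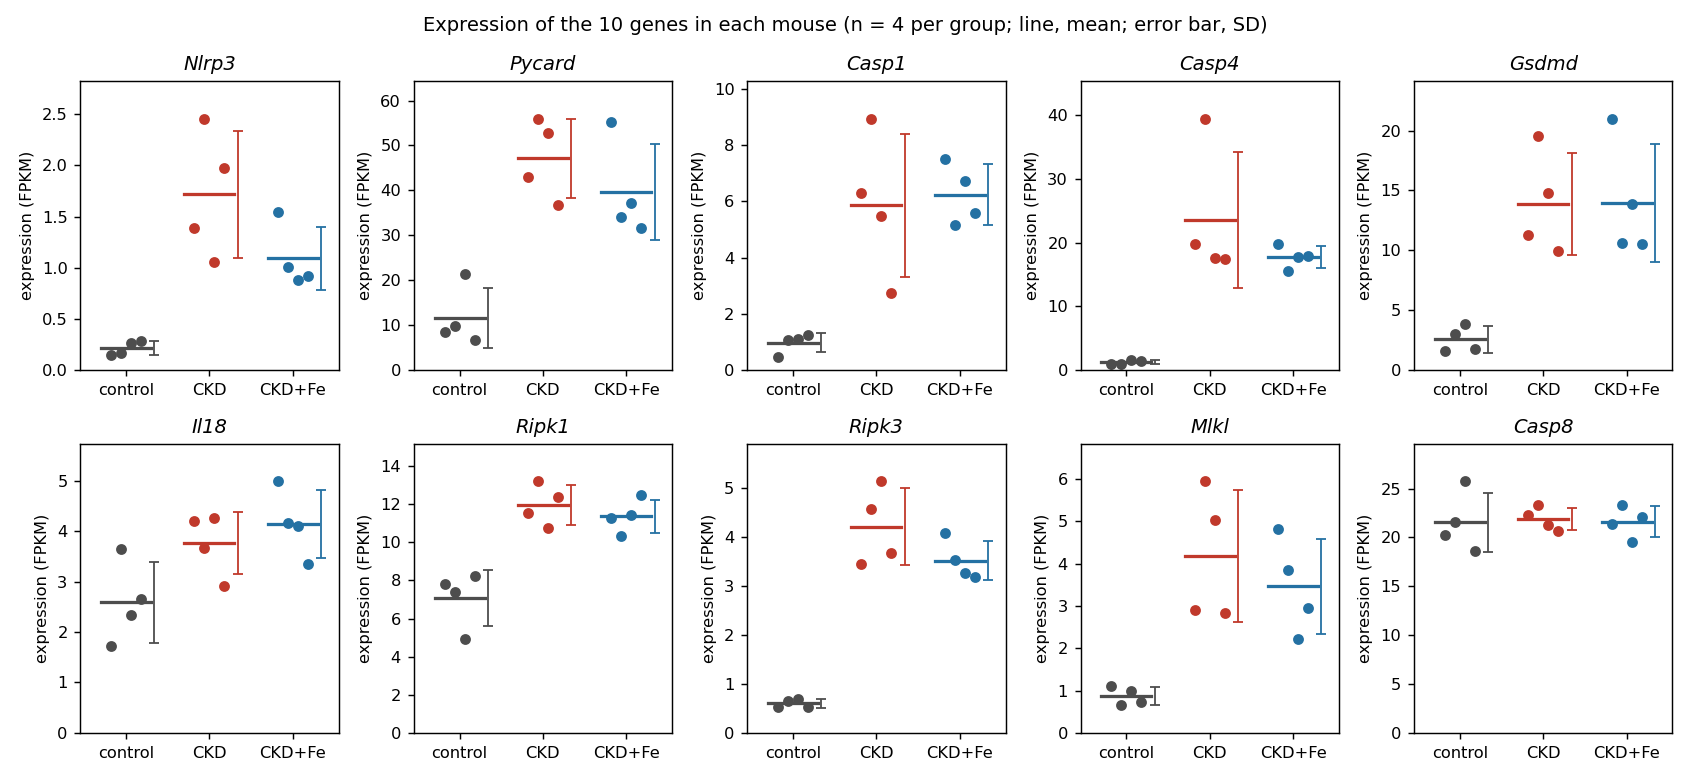
Expression in FPKM of each of the 10 genes in control, CKD and CKD+Fe mice, 1 panel per gene, each axis starting at 0; points are mice, lines are means and error bars are SD (n = 4). In 8 panels all adenine-fed mice lie above all control mice, while Il18 overlaps and Casp8 stays between 18.6 and 25.7 FPKM.

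Of the 10 genes, 9 were called higher in CKD, 0 were called lower and 1 was not called, where 54.6% of all tested genes were called higher. For 8 of them the lowest mouse with CKD exceeded the highest control, which held for 44.6% of all tested genes. For each of these 8 the exact two-sided permutation p was 0.0286, the smallest that 4 mice against 4 allow. The median log2 fold change of the 10 was 1.56, against 0.50 over all genes. With no filter on low values, 8 were called higher, Il18 no longer being called. Median-of-ratios rescaling left 7 called higher and Casp8 lower. Of all 13148 tested genes it left 3571 called higher and 4075 lower. Nlrp3, Ripk3, Mlkl, Casp1 and Casp4 passed the filter only with the adenine-fed groups, where they were high. The counts of genes called higher and of genes that separated are thus partly set by the filter.

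**Figure D3:**
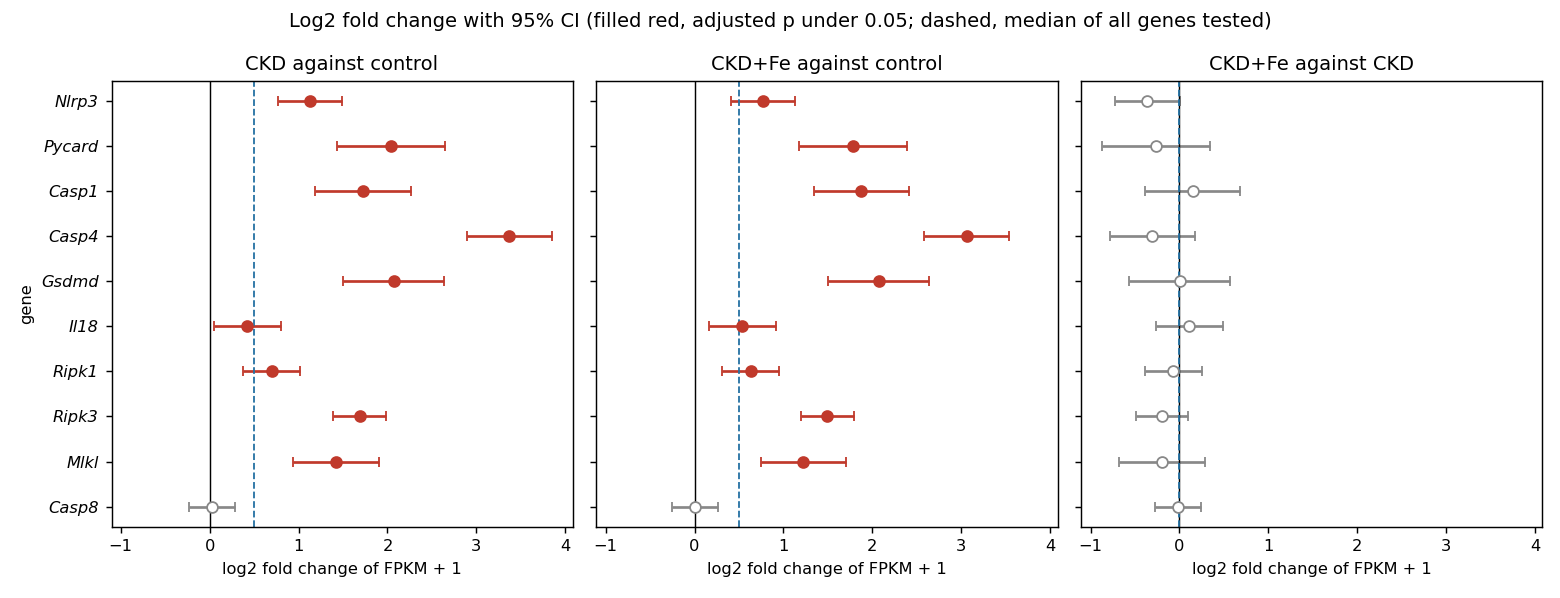
Log2 fold change of FPKM + 1 with its 95% confidence interval for each gene in the 3 comparisons; filled red points passed an adjusted p under 0.05 and the dashed line is the median of all genes tested. Both comparisons with control show 9 filled points, with Casp4 farthest right at 3.37 and 3.06, and CKD+Fe against CKD shows none.

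The diet changed the order of the levels per length. In control mice Casp8 (21.5 ± 3.03 FPKM, SD, n = 4) was first, followed by Pycard (11.6 ± 6.67 FPKM) and Ripk1 (7.09 ± 1.47 FPKM). Casp8 and Pycard overlapped there, as did Pycard and Ripk1, and Ripk1 did not overlap with the next gene, Il18 (2.59 ± 0.796 FPKM). In CKD mice Pycard (47.1 ± 8.87 FPKM) and Casp4 (23.5 ± 10.6 FPKM) came first, their ranges overlapping, with Casp8 (21.9 ± 1.16 FPKM) next. By mean, Casp4 moved from rank 6 of 10 in controls to rank 2 in CKD, and Il18 (3.76 ± 0.622 FPKM in CKD) moved from rank 4 to rank 9. Casp4 overlapped with Gsdmd and Casp1 in controls and with Casp8 in CKD. Its CKD mean passed that of Casp8 through mouse 022301 (39.4 FPKM). In mice 021320, 110310 and 120102 Casp4 was below Casp8. Neighbours from rank 6 to rank 9 in CKD, which were Casp1, Ripk3, Mlkl and Il18, overlapped pair by pair. In CKD+Fe mice Pycard (39.6 ± 10.7 FPKM) was first with no overlap, followed by Casp8 and Casp4 (17.8 ± 1.74 FPKM), which overlapped.

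Ratios between genes of the same mouse do not depend on a scale factor of that mouse. In 3 comparisons 8 such ratios were tested, giving 24 exact two-sided permutation tests, and the smallest adjusted p that any reached was 0.0857, so none passed 0.05 after adjustment. The ratio of Ripk3 to Ripk1 was 0.0651 to 0.142 in control mice, 0.297 to 0.479 in CKD and 0.256 to 0.362 in CKD+Fe. It was higher in 4 of 4 CKD mice than in any control, by 2.02 on the log2 scale (exact p = 0.0286). The ratio of Casp8 to Ripk3 was 32.9 to 38.8 in control mice, 4.14 to 6.46 in CKD and 5.24 to 6.92 in CKD+Fe, a log2 difference of -2.76 between CKD and control (exact p = 0.0286). In the deposited values Casp8 was level and Ripk3 rose. Ripk3 was below 1 FPKM in every control mouse and passed the filter through the adenine-fed groups, where it was high. The control values of both ratios thus rest on low levels. Both ratios reuse the values behind the rise of Ripk3, so they are no separate support for it.

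The ratio of Mlkl to Ripk3 was close to 1 in CKD and overlapped with controls (log2 difference -0.58, exact p = 0.0571). The neighbours Casp4 and Casp1 both rose in CKD. Both were below 1 FPKM in some control mice and needed the adenine-fed groups, where they were high, to pass the filter. Their ratio was 0.874 to 2.16 in control mice, 3.14 to 6.33 in CKD and 2.63 to 3.21 in CKD+Fe (CKD against control, log2 difference 1.62, exact p = 0.0286, or 0.0571 without CKD mouse 022301 or 120102). The ratio of Il18 to Casp1 was 2.09 to 3.62 in control mice, 0.411 to 1.06 in CKD and 0.6 to 0.809 in CKD+Fe (CKD against control, -1.97 on the log2 scale, exact p = 0.0286). The ratios of Gsdmd to Casp1 (-0.06, exact p = 0.914), Pycard to Casp1 (-0.40, exact p = 0.429) and Nlrp3 to Pycard (0.80, exact p = 0.143) overlapped between CKD and control. Each of the 8 ratios overlapped between CKD+Fe and CKD.

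**Figure D4:**
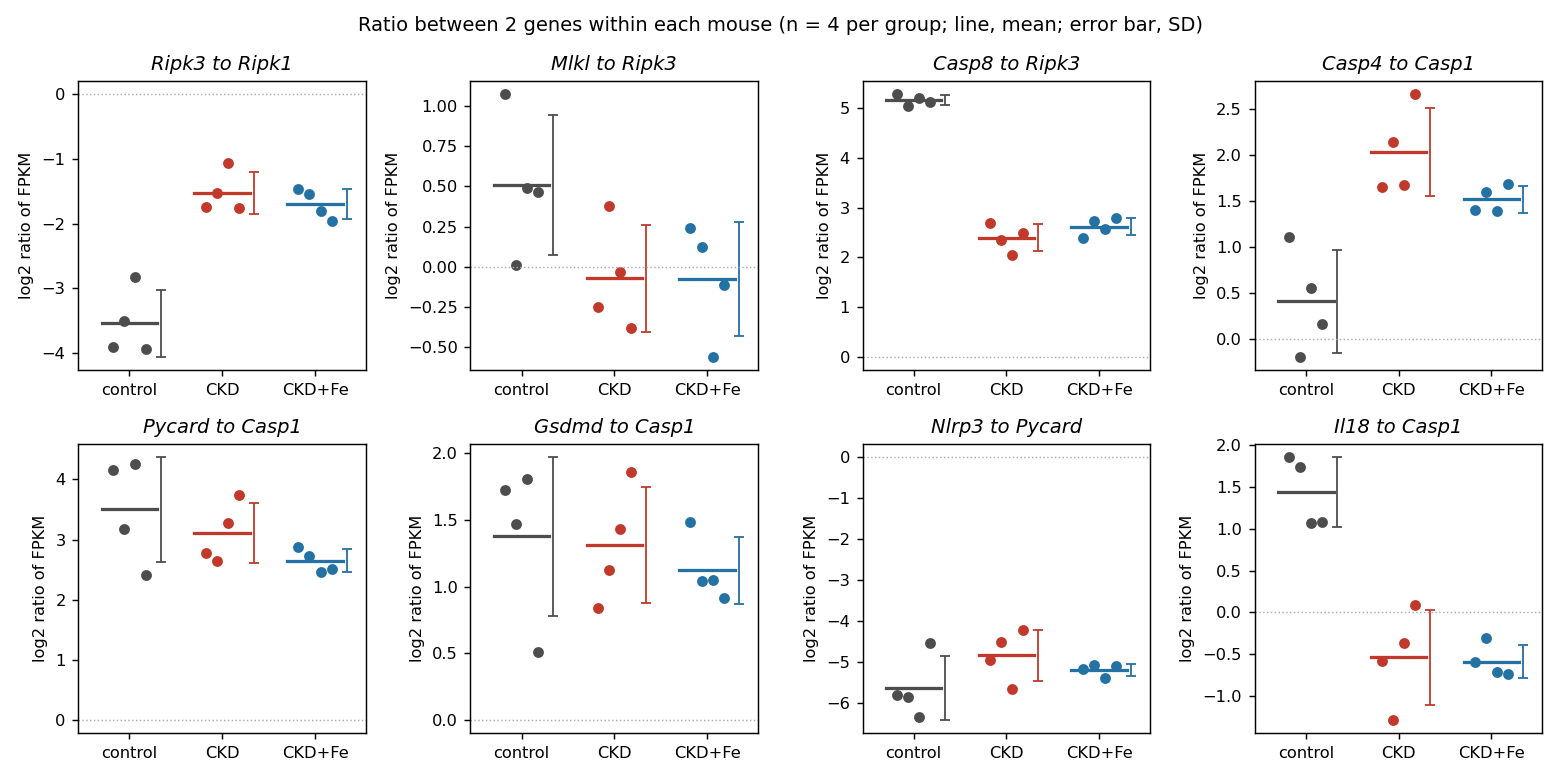
Log2 ratio of the FPKM of 2 genes within each mouse for the 8 ratios, by group; points are mice, lines are means, error bars are SD (n = 4) and the dotted line marks equal levels. Ripk3 to Ripk1, Casp8 to Ripk3, Casp4 to Casp1 and Il18 to Casp1 separate control from adenine-fed mice, and the other 4 overlap.

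Iron dextran was compared with CKD alone. No member was called in either direction, where 1 of all 13148 tested genes (0.00761%) was called higher and none lower. Of the 10 log2 fold changes 3 were positive and 7 negative, their median was -0.13, and 0 had an unadjusted p under 0.05, where 431 genes had a positive and 359 a negative change at that level. No member separated the groups, which 1.35% of tested genes did upward and 1.08% downward. The nearest was Nlrp3, with means of 1.09 ± 0.309 FPKM in CKD+Fe and 1.72 ± 0.62 FPKM in CKD, a log2 fold change of -0.36 (95% confidence interval -0.72 to 0.003). Its limma p was 0.0515 before and 0.832 after adjustment, and its exact permutation p was 0.114. Without the 3 mice that stand apart it was at -0.58 (adjusted p = 0.0885), and with array weights, which count less variable mice more, at -0.51 (adjusted p = 0.0905). Casp4 was at -0.31 (-0.78 to 0.17) and Pycard at -0.26 (-0.87 to 0.35), and without those 3 mice Casp4 was at -0.46 (adjusted p = 0.323). Ripk3 was at -0.20 (-0.49 to 0.10) and Mlkl at -0.20 (-0.68 to 0.28). Casp8 had the narrowest interval, -0.28 to 0.24 around -0.02, and Ripk1 ran from -0.39 to 0.25. Gsdmd (-0.57 to 0.57), Casp1 (-0.39 to 0.69) and Il18 (-0.26 to 0.49) had intervals on both sides of 0. These intervals leave room for changes of either sign, and the absence of a call does not show that iron left the transcripts as they were.

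In each adenine-fed group the highest values of most genes fell in 1 mouse. CKD mouse 022301 was the highest of its group for 8 of the 10 genes and mouse 120102 the lowest for 7. In CKD+Fe mouse 042702 was the highest for 8, and the lowest values were spread over the other 3 mice. The macrophage marker sum was 3754 FPKM in mouse 022301, the highest of CKD, and 3827 FPKM in mouse 042702, the highest of CKD+Fe. At the low end of CKD, mice 120102 (1821 FPKM) and 021320 (1827 FPKM) were nearly equal, and 021320 was the lowest for only 1 of the 10 genes. Without mice 042301, 110310 and 042702 together, Gsdmd in CKD+Fe against CKD was -0.16 in place of 0.0004, again with no call (adjusted p = 0.747).

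CKD+Fe mice were also compared with control mice. The same control mice serve both comparisons, so the values are given side by side and not as a repeat. In CKD+Fe 9 of the 10 were called higher (54.4% of all tested genes) and 0 lower (11% of all), and 8 separated the groups (50.3% of all). The log2 fold changes in CKD+Fe and in CKD were 3.06 and 3.37 for Casp4, 2.07 and 2.07 for Gsdmd, 1.87 and 1.73 for Casp1 and 1.78 and 2.04 for Pycard. They were 1.49 and 1.69 for Ripk3, 1.22 and 1.42 for Mlkl, 0.77 and 1.13 for Nlrp3, 0.63 and 0.70 for Ripk1, 0.54 and 0.43 for Il18 and 0.01 and 0.03 for Casp8. The call of Il18 in CKD+Fe was lost without the 3 mice that stand apart (0.43, adjusted p = 0.0637). With quantile normalization 5 of the 10 were called higher in CKD+Fe, and Nlrp3, Mlkl, Ripk1 and Il18 were not. Of all 13148 tested genes 2605 were then called higher. Casp8 was lower after rescaling here too, at -0.58 with median-of-ratios rescaling and -0.34 with quantile normalization.

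Genes around the 10 in the same pathways were read from 5 lists. Of 17 inflammasome sensors and triggers, 12 passed the filter. In CKD 9 of the 12 (75%, against 54.6% of all tested genes) were called higher, 2 (16.7%, against 13.3%) lower and 1 not, with a median of 1.14. Of the 12, 4 were below 1 FPKM in every control mouse and passed the filter through the adenine-fed groups. P2rx7, Panx1 and Gbp5 were below 1 FPKM in some control mice, so they also needed the adenine-fed groups to pass. The count called higher is thus partly set by the filter. The ATP-gated channel P2rx7 (1.0 ± 0.287 FPKM in control and 8.3 ± 1.84 FPKM in CKD mice, log2 fold change 2.21) and the ATP-releasing channel Panx1 (0.944 ± 0.326 and 8.1 ± 1.81 FPKM, 2.22) rose most on the log2(FPKM + 1) scale. By the ratio of means the DNA sensor Aim2 (11.2) and Naip5 (9.4), both at low levels, were above Panx1 (8.59) and P2rx7 (8.3). The sensor Nlrp6 fell from 25 ± 4.3 to 8.2 ± 0.847 FPKM (-1.49, adjusted p = 2.91e-05), and the sensor Nlrc4 from 1.49 ± 0.317 to 0.903 ± 0.328 FPKM (-0.40, adjusted p = 0.0393), its groups overlapping. The call of Nlrc4 did not stand in all alternatives, as the count of 2 became 1 in 5 of the 8 fits that left out a mouse.

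All 11 genes of the list of IL-1 and IL-18 cytokines, receptors and inhibitors passed the filter, and all 11 were called higher in CKD, where 54.6% of all tested genes were, with a median of 1.87. Of the 11, 6 were below 1 FPKM in every control mouse and passed the filter through the adenine-fed groups, where they were high, so this count is partly set by the filter. The receptor antagonist Il1rn rose from 0.17 ± 0.113 to 29 ± 13.9 FPKM (4.57, adjusted p = 4.63e-08). The alarmin Il33 rose from 2.8 ± 0.616 to 29.9 ± 5.89 FPKM (3.02, adjusted p = 2.94e-08). Il1b, named after its value was seen because its product is the other substrate of caspase-1, rose from 1.26 ± 0.0297 to 19 ± 11.4 FPKM (3.00, adjusted p = 9.49e-07). The change of Il18 itself, at 0.43, was thus smaller than that of every gene in this list.

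Of 11 genes for other gasdermins and for membrane rupture and repair, 6 passed the filter. In CKD 2 (33.3%, against 54.6% of all tested genes) were called higher, 0 lower and 4 not, with a median of -0.12. Those called were Chmp4b (66.8 ± 4.9 FPKM in control and 117 ± 25.7 FPKM in CKD mice, 0.78) and Chmp3 (48.8 ± 4.79 and 60.4 ± 4.49 FPKM, 0.31), which encode parts of the ESCRT-III membrane repair machinery. Neither was called higher after median-of-ratios rescaling, where 3 of the list were called lower. Of all 13148 tested genes 4075 were called lower after that rescaling. Gsdme, which encodes another pore-forming gasdermin, was at -0.33 (adjusted p = 0.0729) and Ninj1, which encodes a mediator of plasma membrane rupture, at -0.38 (adjusted p = 0.0799).

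In the list of the TNF receptor complex and necroptosis regulators all 27 genes passed the filter. Of the 27, 1 (Tnf) was below 1 FPKM in every control mouse and passed through the adenine-fed groups. Tlr4 and Tnfaip3 were below 1 FPKM in some control mice, so they also needed those groups to pass. In CKD 17 (63%) were called higher, near the 54.6% of all tested genes, 0 were called lower and 10 were not called, with a median of 0.86. The receptor Tnfrsf1b rose from 1.68 ± 0.228 to 22.5 ± 4.83 FPKM (3.11) and the ubiquitin ligase Birc3 from 3.62 ± 0.425 to 37.5 ± 14.3 FPKM (2.98). The adaptors Fadd (-0.05, adjusted p = 0.785) and Ticam1 (0.01, adjusted p = 0.956) were not called, nor was Cflar (0.34, adjusted p = 0.0791), which encodes the caspase-8 regulator c-FLIP. After median-of-ratios rescaling 8 genes were called higher and 4 lower, and after quantile normalization 10 and 4. Over all 13148 tested genes these counts were 3571 and 4075, and 3060 and 3363.

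Of 21 apoptotic caspases, BCL-2 family members and death receptors, 20 passed the filter. In CKD 15 (75%, against 54.6% of all tested genes) were called higher, 2 (10%, against 13.3%) lower and 3 not, with a median of 0.98. Casp12, Tnfrsf10b, Bbc3 and Apaf1 were below 1 FPKM in some control mice, so they needed the adenine-fed groups to pass the filter. The count called higher is thus partly set by the filter. Casp12, the next gene downstream of Casp4 on chromosome 9 with 8646 bases between them, rose from 0.889 ± 0.22 to 13.3 ± 4.54 FPKM (2.87), and Casp2 from 4.21 ± 0.712 to 16.1 ± 3.91 FPKM (1.70). Cycs, which encodes cytochrome c, fell from 94.6 ± 6.04 to 44.7 ± 10.6 FPKM (-1.09, adjusted p = 0.000106). Bid, which encodes a caspase-8 substrate, fell from 31.7 ± 7.01 to 20.6 ± 1.32 FPKM (-0.57, adjusted p = 0.00585).

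**Figure D5:**
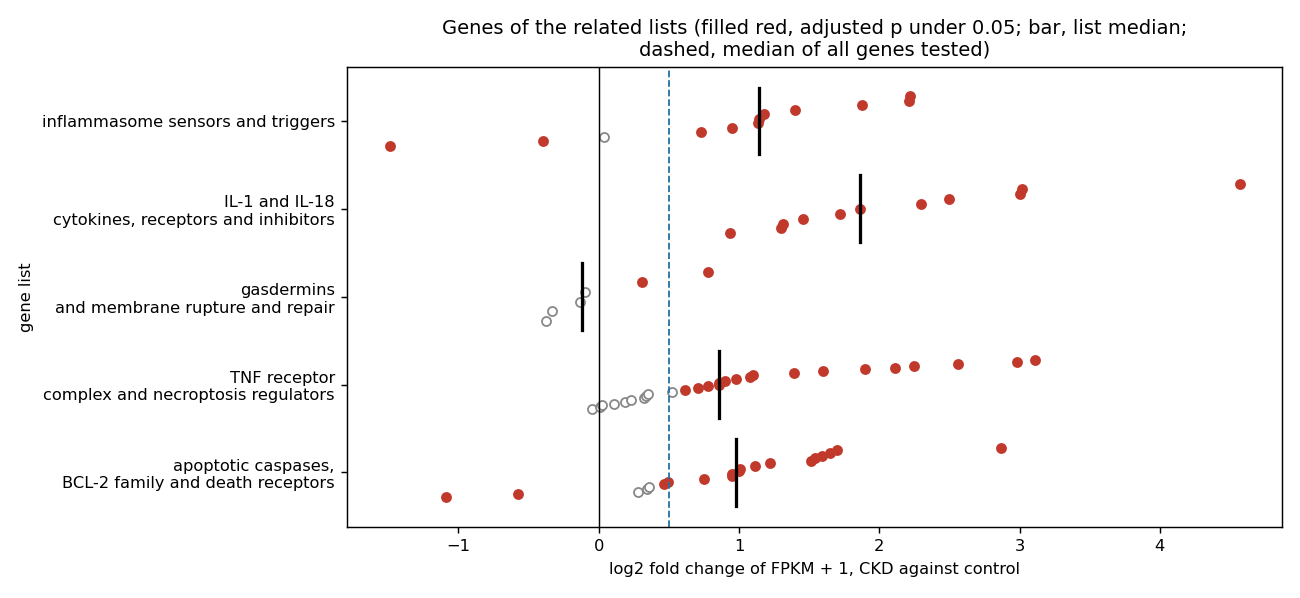
Change of each tested gene in CKD against control, as log2 fold change of FPKM + 1, in the 5 lists; filled red points passed an adjusted p under 0.05, bars are list medians and the dashed line is the median of all genes tested (0.50). Every point of the IL-1 and IL-18 list lies to the right of the dashed line, and the median of the gasdermin and membrane list (-0.12) lies to the left of 0.

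In CKD+Fe against CKD no gene of the 5 lists was called, where 1 of all 13148 tested genes (0.00761%) was. At an unadjusted p under 0.05 there were 6 of 76 tested genes (7.89%, near the 6.01% of all tested genes), with limma p of 0.0171 for Nlrp6 (0.55), 0.01 for Gbp2 (-0.60), 0.0362 for Gbp5 (-0.50), 0.00357 for Il33 (-0.56), 0.012 for Il1rl1 (-0.44) and 0.0144 for Il1rn (-0.76). Their adjusted p ran from 0.456 to 0.799. Il33 was 19.6 ± 0.985 FPKM in CKD+Fe and 29.9 ± 5.89 FPKM in CKD, with every CKD+Fe mouse below every CKD mouse. Its receptor gene Il1rl1, and Gbp2, which encodes an interferon-induced GTPase, separated the groups in the same direction, and Gsdme in the other, at 3.35 to 3.92 FPKM in CKD+Fe and 2.6 to 3.15 FPKM in CKD (log2 fold change 0.29, adjusted p = 0.89). Of all tested genes 1.08% separated downward and 1.35% upward. Il33 was called with array weights (adjusted p = 0.0326) and without the 3 mice that stand apart (adjusted p = 0.0421). These fits called more genes of the whole set than the main fit. Array weights gave 79 higher and 56 lower, and leaving out the 3 mice gave 51 higher and 33 lower.

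For each of the 10 genes the gene with the most similar pattern was taken as that with the smallest root-mean-square distance between standardised log2(FPKM + 1) over the 12 mice. The closest pair was Gsdmd with Arrb2, at a distance of 0.0633, where the median distance of Gsdmd to all genes was 0.755. Next came Casp4 with Tlr2 (0.0776), Ripk3 with Kdelr3 (0.0783), Pycard with Anxa2 (0.0818) and Ripk1 with Rnf4 (0.101). Casp1 lay nearest to Cd83 (0.144), Nlrp3 to Rnf180 (0.165) and Mlkl to Rasgrp4 (0.188). Il18 (with Purg, 0.442) and Casp8 (with Krt23, 0.39) had no gene as close. Each distance is the smallest over all tested genes outside the 10, so it lies below the median by construction.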

How the data were processed

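Whole kidney RNA of 12 mice, 4 per group by the labels, was measured as 1 library per mouse. The authors made stranded mRNA libraries, sequenced them as single-end reads of 50 cycles on a HiSeq4000 and deposited FPKM per gene and mouse. The submitters' processing notes name STAR 2.5.2, Cufflinks 2.1.1, bcl2fastq 2.19 and GRCm38. The authors tested counts with DESeq2, and those counts were not used here. FPKM are relative within a mouse, so 1 abundant transcript shifts all others: Kap took over 10% of the sum in each control mouse. Failed estimates (30 values in 17 genes, none of the 10) were treated as missing.

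Here log2(FPKM + 1) of all 12 mice was fitted with limma 3.58.1 in R 4.3.3 (variance trend, two-sided p, Benjamini-Hochberg adjustment), and all adjusted p of single genes are from this fit. The fit was tested on simulated data. Exact permutation tests used all 70 arrangements of 4 mice against 4. Separate animals are the replicates, and no batch is labelled. The 10 genes and all lists were chosen with earlier results of these data known. Genes named beyond the 10 are the 2 largest rises and 2 largest falls called per list in CKD against control, and the nearest pattern of each of the 10; Il1b, Aim2, Naip5, Gsdme, Ninj1, Fadd, Ticam1, Cflar and the genes at an unadjusted p under 0.05 were named after their values were seen. Alternatives were rescaling, pseudocount, filters, samples in the fit, array weights, no variance trend, the threshold of 0.5 in the study's RNA-sequencing methods, and mice left out.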

Additional observations from a re-analysis of the deposited data

Results flagged for a closer look

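The level of Casp4 in CKD mouse 022301, 39.4 FPKM, lay far from the other 3 mice with CKD. On the log2(FPKM + 1) scale its gap to the next mouse was 0.852 of the whole range of the group. The 10 genes in 3 groups gave 30 such checks, and chance passes this limit in about 1 in 20 of them, so 1 is no more than chance gives. The same mouse had the highest macrophage marker sum of its group, 3754 FPKM, and the highest neutrophil marker sum, 232 FPKM. The part of either in the level of Casp4 was not tested. Without this mouse Casp4 was still called higher in CKD than in control.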

How the results depend on the processing

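Without read counts no counting error can be given, and levels below 1 FPKM rest on few reads of unknown number. Such levels were those of Nlrp3 and Ripk3 in every control mouse. They were also those of Mlkl, Casp1 and Casp4 in some control mice and of Nlrp3 in some CKD+Fe mice. Casp4, Pycard, Casp1, Gsdmd, Ripk3, Mlkl and Nlrp3 kept their call and direction in CKD against control in every alternative that tested them. Median-of-ratios rescaling with size factors over the tested genes was added after the data were seen.

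In CKD against control, Casp8 became -0.57 with median-of-ratios rescaling, -0.52 with size factors over the tested genes and -0.31 with quantile normalization, and Il18 became -0.040, -0.0073 and -0.40. In CKD+Fe against control, Casp8 became -0.58, -0.53 and -0.34, and with quantile normalization Il18 became -0.28 and Ripk1 -0.0025. With each of these 3 scalings 1 of the 10 genes was called lower in each comparison with control, and quantile normalization left 5 higher in CKD+Fe. A filter at a mean of 5 FPKM left 4 of the 10 called higher in both, since fewer genes were tested. It likewise left 3 sensors higher and 1 lower, and 5 IL-1 and IL-18 genes higher, in both.

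For CKD against control and CKD+Fe against control, gasdermin and membrane genes called higher were 0 and 0 with median-of-ratios rescaling, 0 and 0 with size factors over the tested genes, and 1 and 1 with quantile normalization, and those lower were 3 and 3, 2 and 2, and 1 and 1. TNF complex genes higher were 8 and 8, 9 and 9, and 10 and 10, and those lower were 4 and 5, 4 and 5, and 4 and 4. Over all 13148 tested genes those higher were 3571 and 3427, 3781 and 3636, and 3060 and 2605. Those lower were 4075 and 3851, 3856 and 3618, and 3363 and 2967. Quantile normalization gave 9 apoptotic genes higher in CKD, and 5 apoptotic genes and 5 sensors higher in CKD+Fe. With only the 2 groups compared, 1 sensor was lower and 1 membrane gene higher in CKD, and 1 apoptotic gene lower in CKD+Fe, as also with no filter. With array weights, at an adjusted p under 0.5 and without the 3 mice that stand apart, 2 membrane genes were lower in CKD, 4 were higher in CKD+Fe against control, and 1 IL-1 family gene, Il33, was lower in CKD+Fe against CKD. Without those 3 mice Gsdmd in CKD+Fe against CKD was -0.16. The cause of these changes was not tested.

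With each mouse left out in turn, members called higher ran from 8 to 9 in both comparisons with control, the one lost being Il18, whose log2 fold change in CKD ran from 0.30 to 0.56. Casp8 ran from -0.033 to 0.115 in CKD against control, from -0.053 to 0.095 in CKD+Fe against control and from -0.056 to 0.025 in CKD+Fe against CKD. In CKD+Fe against CKD, Casp1 ran from -0.11 (without CKD mouse 120102) to 0.35 and Gsdmd from -0.20 (without CKD+Fe mouse 042702) to 0.17. Sensors called lower ran from 1 to 2 in both comparisons with control, membrane genes higher from 1 to 2 in both and lower from 0 to 1 in CKD, and apoptotic genes lower in CKD+Fe from 1 to 2. Log2 differences of ratios in CKD against control ran from 1.41 to 1.86 for Casp4 to Casp1 (exact p = 0.0571 without CKD mouse 022301 or 120102) and from -0.35 to 0.10 for Gsdmd to Casp1. In CKD+Fe against control they ran from 0.91 to 1.34 for Casp4 to Casp1 (exact p = 0.0571 without any 1 CKD+Fe mouse), from -0.75 to -0.40 for Mlkl to Ripk3, from -1.22 to -0.60 for Pycard to Casp1 and from 0.21 to 0.81 for Nlrp3 to Pycard. In CKD+Fe against CKD they ran from -0.11 to 0.15 for Mlkl to Ripk3, from -0.62 to -0.15 for Nlrp3 to Pycard and from -0.30 to 0.15 for Il18 to Casp1. Below an exact p of 0.05 were then Mlkl to Ripk3 without control mouse 012822, Pycard to Casp1 and Nlrp3 to Pycard without control mouse 042310, and, for CKD+Fe against CKD, Nlrp3 to Pycard without CKD mouse 110310. No paired analysis was possible because the groups share no replicate numbers.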
